A study of Mus musculus with 20 samples.

Results

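The 10 genes described here are members of the circadian clock: Arntl, Npas2, Per1, Per2, Per3, Cry1, Cry2, Nr1d1, Nr1d2 and Dbp. They were taken by symbol from a fixed list, and all 10 were found among the 43472 genes of the deposited count table. RNA was sequenced from ventral prostates of male mice of both genotypes, ARNoC/Y and wild type (WT, C57BL/6J). ARNoC/Y males carry an allele of the X-linked androgen receptor gene, which the labels name ARNoC without describing the change. All animals had been orchidectomised, which removes the testes and with them the main source of androgen, and all were then given testosterone or vehicle for 4 days. The 4 groups of 5 libraries were ARNoC with testosterone, ARNoC with vehicle, WT with testosterone and WT with vehicle. No source used here gives the animals' age, the hour of dissection or whether each library is a separate animal. The p-values therefore reflect library-to-library spread, which may be technical.

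The mammalian clock is a feedback loop of transcription. The protein of Arntl (BMAL1) pairs with CLOCK or its paralogue NPAS2, and the pair binds E-box DNA and activates the Per, Cry, Nr1d and Dbp genes. PER and CRY proteins then inhibit that pair, and the REV-ERB receptors encoded by Nr1d1 and Nr1d2 repress Arntl, Npas2 and Cry1. DBP, an output factor, acts with TEF and HLF on D-box DNA, where NFIL3 acts as their repressor. Peripheral organs hold such a loop in most of their cells, and its genes swing through the day in opposite phases, with Arntl and Npas2 in one and Dbp, Nr1d1 and Per in the other.

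Promoter sequence is shown for the members whose last 250 bases before the RefSeq start site (GRCm38.p6, the same assembly as the mm10 build of the count data) hold DNA elements of the loop. Of the members, 9 have an entry, 6 of these hold such an element, and both strands were searched. The canonical E-box CACGTG was found in Cry1 and in Per1 before the more upstream of its 2 start sites in the RefSeq table, against 6.02% of the 32851 promoters of the same length. The variant CACGTT was found in Cry1, Cry2 and Nr1d1, against 3.85% of promoters. The D-box TTANGTAA was found in Per3, at 2 places starting at positions -205 and -158 from the start site, against 2.06% of promoters. The element AGGTCA, bound by REV-ERB and ROR receptors, was found in Nr1d2 and Per1, against 14% of promoters. AGAACA, an element bound by steroid receptors, was found in no member, against 16.1% of promoters. None of these motifs overlapped another in a member. Capitals mark the matches, read 5′ to 3′ on the gene's strand, for Per3 (chr4:151044666-151044915, minus strand), Cry1 (chr10:85185055-85185304, minus strand), Nr1d1 (chr11:98775378-98775627, minus strand), Per1 (chr11:69098699-69098948, plus strand), Cry2 (chr2:92434070-92434319, minus strand) and Nr1d2 (chr14:18239107-18239356, minus strand).
Per3: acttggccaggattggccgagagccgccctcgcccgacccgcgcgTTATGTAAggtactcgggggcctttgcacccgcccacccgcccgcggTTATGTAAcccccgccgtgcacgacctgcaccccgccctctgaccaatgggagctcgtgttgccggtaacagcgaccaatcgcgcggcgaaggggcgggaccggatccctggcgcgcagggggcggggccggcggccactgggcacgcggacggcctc
Cry1: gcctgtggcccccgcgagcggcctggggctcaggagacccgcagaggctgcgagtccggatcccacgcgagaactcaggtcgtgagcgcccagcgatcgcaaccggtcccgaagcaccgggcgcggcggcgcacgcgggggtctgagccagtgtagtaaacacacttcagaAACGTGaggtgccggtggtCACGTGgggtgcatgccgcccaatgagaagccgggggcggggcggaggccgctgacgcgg
Nr1d1: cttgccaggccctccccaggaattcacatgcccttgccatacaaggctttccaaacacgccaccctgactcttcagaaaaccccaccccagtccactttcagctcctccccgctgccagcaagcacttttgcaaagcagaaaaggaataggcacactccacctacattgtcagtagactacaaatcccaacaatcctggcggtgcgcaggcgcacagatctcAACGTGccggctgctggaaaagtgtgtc
Per1: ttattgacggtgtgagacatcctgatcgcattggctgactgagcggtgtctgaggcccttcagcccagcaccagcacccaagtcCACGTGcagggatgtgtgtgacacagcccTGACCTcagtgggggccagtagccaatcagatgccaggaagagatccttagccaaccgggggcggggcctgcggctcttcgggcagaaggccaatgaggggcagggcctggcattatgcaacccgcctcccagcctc
Cry2: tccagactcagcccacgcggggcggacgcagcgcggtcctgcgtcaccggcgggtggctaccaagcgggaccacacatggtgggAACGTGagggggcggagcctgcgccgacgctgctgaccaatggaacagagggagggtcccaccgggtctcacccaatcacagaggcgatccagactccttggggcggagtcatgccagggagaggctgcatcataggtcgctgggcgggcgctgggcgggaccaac
Nr1d2: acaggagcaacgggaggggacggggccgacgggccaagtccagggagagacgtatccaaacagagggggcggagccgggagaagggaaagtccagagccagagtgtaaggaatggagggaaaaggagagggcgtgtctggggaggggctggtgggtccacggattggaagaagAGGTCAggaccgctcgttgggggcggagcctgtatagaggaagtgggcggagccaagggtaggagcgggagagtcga

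Libraries held between 8861646 and 21600352 counts. Levels below are the authors' normalized counts, in which each library's counts are scaled by its DESeq2 size factor, so that they compare libraries but not genes of different length. In bulk tissue, fewer cells of a type and less RNA per cell cannot be told apart. Markers of luminal epithelium were present, with all 10 above 0 in every group, and with testosterone 6 of them fell and 2 rose in each genotype. Of 8 basal markers 5 fell in ARNoC, and 4 fell and 1 rose in WT. Of 10 fibroblast markers 2 fell in ARNoC and 5 fell in WT, with median log2 changes of -0.40 and -1.39, and of 10 smooth muscle markers 5 rose in ARNoC and 1 rose in WT. Of 9 endothelial markers 0 fell in ARNoC and 3 fell in WT. The 5 secretory genes of the ventral prostate rose with testosterone in both genotypes, to a summed level of 1633783 to 2113215 in ARNoC with testosterone against 307693 to 651364 in ARNoC with vehicle, and of 2101899 to 3340117 in WT with testosterone against 435834 to 550881 in WT with vehicle. Markers of macrophages and other myeloid cells fell with testosterone, 10 of 12 in ARNoC and 12 of 12 in WT. Their sum ran from 2731 to 5272 in ARNoC with testosterone against 3011 to 12831 in ARNoC with vehicle, and from 1642 to 3606 in WT with testosterone against 3341 to 18797 in WT with vehicle. Of 7 tested lymphocyte markers 5 fell in each genotype. Of 8 adipocyte markers 0 fell in ARNoC and 1 fell in WT, and 0 of 8 skeletal muscle markers were called in either genotype. Summed skeletal muscle markers ran from 118 to 12742 within WT with vehicle. Summed adipocyte markers ran from 369 to 19697 within WT with testosterone. Urothelial markers summed to 4081 to 7178 in ARNoC with testosterone and 8445 to 11085.5 in WT with testosterone. With vehicle these were 9771 to 13303 and 7778 to 12849. Beside these marker counts, 16.8% of all tested genes fell and 19.4% rose in ARNoC, and 18.8% fell and 20.4% rose in WT. The WT counts for adipocyte and smooth muscle markers were no higher than those shares. The part of any of these cell types in the clock gene differences, or in the spread within groups, was not tested. A stromal marker score added as a covariate left every call on the 10 genes as it was in both genotypes. That score holds 20 fibroblast and smooth muscle genes, so it does not cover the myeloid, lymphocyte, epithelial or secretory markers.

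With testosterone replacement, the output gene Dbp, both REV-ERB genes, Per2 and Per3 were 2.23 to 6.71 times lower in both genotypes. Cry2 was slightly lower, and Cry1 was 1.57 times higher in ARNoC and 1.55 times higher in WT. Because the hour of dissection is not given, a difference in hour between the groups could not be told apart from the treatment. Of the 10 members, 6 fell and 2 rose in ARNoC prostates, and 6 fell and 1 rose in WT prostates (edgeR quasi-likelihood test on counts, Benjamini-Hochberg adjusted p below 0.05 over 15261 genes). All 10 members passed the filter of at least 10 normalized counts in at least 5 libraries. Testosterone changed much of the transcriptome: 16.8% of tested genes fell and 19.4% rose in ARNoC, and 18.8% fell and 20.4% rose in WT. The median log2 change of the members was -0.84 in ARNoC and -0.73 in WT, beside -0.01 and -0.02 over all tested genes. Libraries of the groups did not overlap for 6 lower members in ARNoC and 5 in WT, beside 10.7% and 11.9% of tested genes, and for 1 higher member, Cry1, in each genotype, beside 12.4% and 15.2%.

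**Figure D1:**
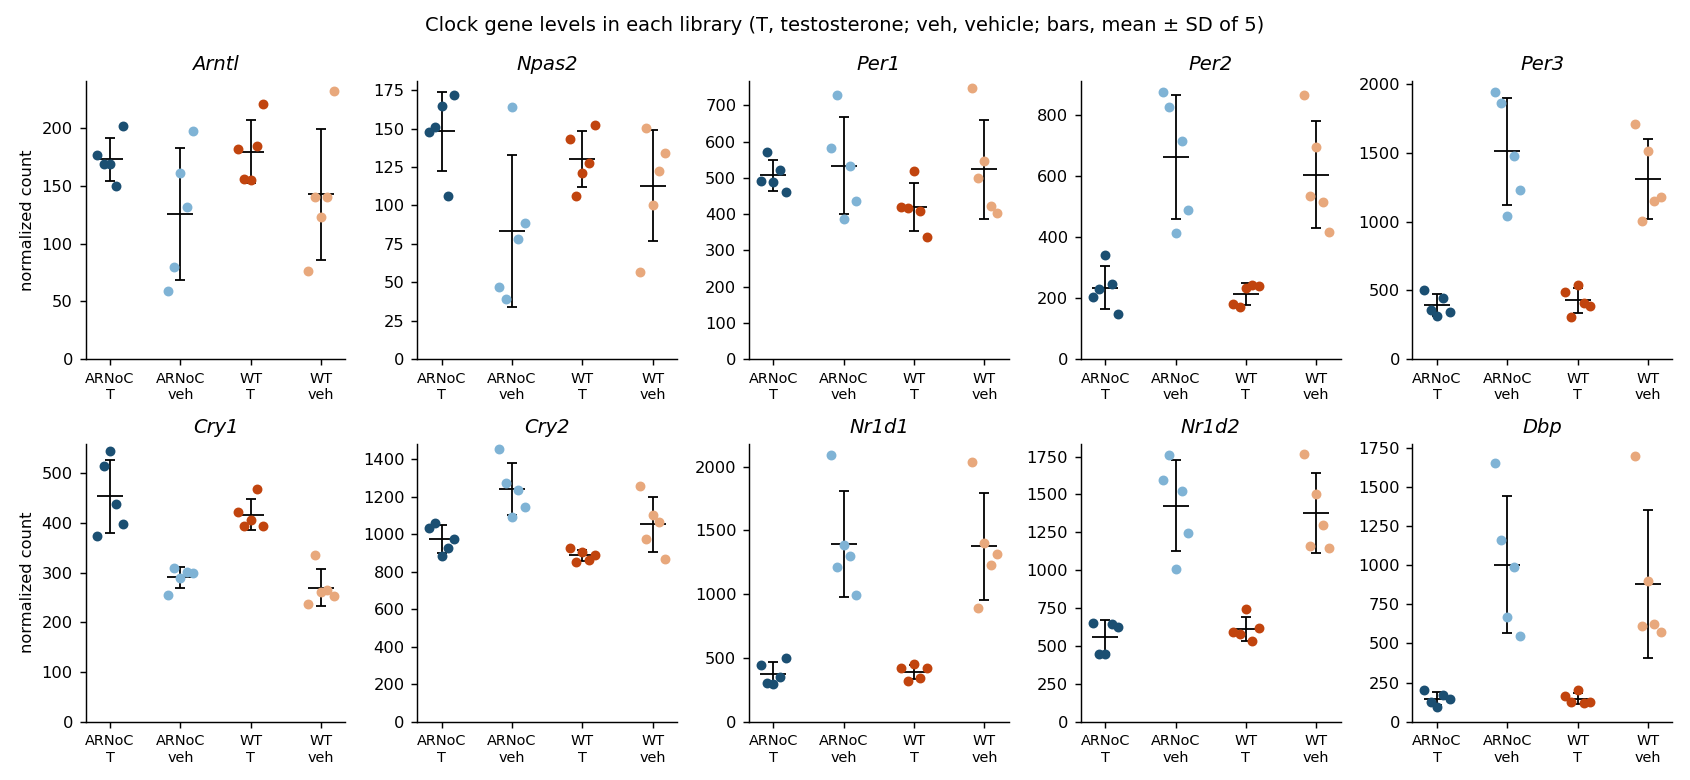
Normalized counts (vertical axes, linear and starting at 0) of the 10 clock genes in each of 20 libraries. Points are libraries, and horizontal bars with whiskers are means and SDs of 5 libraries. Dbp, Nr1d1, Nr1d2, Per2 and Per3 are lower in every testosterone library than in every vehicle library of the same genotype, and Cry1 is higher.

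Among the activators, neither Arntl nor Npas2 gave a firm change. Arntl (ENSMUSG00000055116, chr7:113207465-113314126) had 176, 169, 169, 150.0 and 202 normalized counts in ARNoC with testosterone, against 59.0, 79.8, 161, 132 and 197 in ARNoC with vehicle. In WT it had 182, 156, 155, 184 and 221 with testosterone, against 76.4, 140.5, 123, 141 and 232 with vehicle. The vehicle libraries reached both below and above the testosterone libraries in WT, and the lowest values of Arntl in the series were 3 vehicle libraries. The log2 change was 0.47 ± 0.27 (SE) in ARNoC with an edgeR adjusted p of 0.197, and 0.34 ± 0.28 in WT with an adjusted p of 0.341, so neither passed. Npas2 (chr1:39193731-39363236), the paralogue of CLOCK, had 148, 151, 165, 106 and 172 in ARNoC with testosterone, against 46.7, 39.3, 164, 78.5 and 88.9 in ARNoC with vehicle. WT libraries had 143, 106, 121, 128 and 152 with testosterone, against 56.8, 150.4, 100.2, 122 and 134 with vehicle. It rose in ARNoC (log2 0.83 ± 0.31 SE, edgeR adjusted p = 0.0386), where the groups overlapped, and was not called in WT (log2 0.22 ± 0.31, adjusted p = 0.607). The call in ARNoC ended when any of 8 of the 10 ARNoC libraries was left out, at log2 changes of 0.65 to 1.24 over all 10 omissions.

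The 3 Per genes, which encode the repressors that associate with CRY, did not move alike. Per2 (ENSMUSG00000055866, chr1:91415982-91459324) had 204, 228, 339.6, 247 and 147 normalized counts in ARNoC with testosterone, against 874, 824, 413, 712 and 487 in ARNoC with vehicle. The WT values were 179, 171, 233, 243 and 238 with testosterone, against 863, 533, 693, 513 and 416 with vehicle. Every testosterone library was below every vehicle library in both genotypes. Per2 was 2.82 times lower in ARNoC (SE of the log2 change 0.23, edgeR adjusted p = 4.5e-05) and 2.82 times lower in WT (SE 0.24, edgeR adjusted p = 4.82e-05). Per3 (ENSMUSG00000028957, chr4:151003652-151044665), whose promoter carries the D-boxes printed above, had 505, 356, 310.3, 447 and 339.5 in ARNoC with testosterone, against 1942, 1866, 1043, 1476 and 1229.8 in ARNoC with vehicle. WT libraries had 491, 308, 538, 409 and 385 with testosterone, against 1714, 1008, 1516, 1152 and 1180.1 with vehicle. Again no libraries overlapped, and Per3 fell by 1.94 on the log2 scale in ARNoC (SE 0.19, edgeR adjusted p = 1.83e-07) and had a log2 change of -1.62 in WT (SE 0.19, edgeR adjusted p = 1.69e-06).

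Per1 behaved otherwise. Per1 (ENSMUSG00000020893, chr11:69095217-69109960), known for its rapid induction by hormones and light, had 491, 572, 489.5, 523 and 460.5 in ARNoC with testosterone, against 584, 729, 386, 534 and 435 in ARNoC with vehicle. Its WT values were 419, 416, 519.6, 409 and 336 with testosterone, against 747, 499, 547, 422 and 404 with vehicle. The groups overlapped in both genotypes. The log2 change of Per1 was -0.07 in ARNoC, with a 95% interval of -0.41 to 0.28, and -0.31 in WT, with an interval of -0.66 to 0.04, and the edgeR adjusted p was 0.785 and 0.15. Per1 is also a direct target of the glucocorticoid receptor in many tissues. A list of 16 glucocorticoid-responsive genes includes Per1. Of these, 10 rose and 0 fell in ARNoC and 9 rose and 1 fell in WT, with median log2 changes of 1.03 and 0.69. Over all tested genes, 19.4% rose and 16.8% fell in ARNoC, and 20.4% rose and 18.8% fell in WT. The receptor through which the listed genes changed was not tested.

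The 2 cryptochrome genes, whose proteins block the activator pair, went in opposite directions. Cry1 (ENSMUSG00000020038, chr10:85131700-85185064), which holds an E-box and the variant element in the window printed above, had 373, 515, 543, 439 and 398 normalized counts in ARNoC with testosterone, against 255, 308, 289.5, 300.2 and 300.0 in ARNoC with vehicle. The values in WT were 422, 394, 405, 469 and 394 with testosterone, against 237, 335, 260.1, 265 and 252 with vehicle. Every testosterone library was above every vehicle library of its genotype. Cry1 rose by 0.65 on the log2 scale in ARNoC (SE 0.11, edgeR adjusted p = 9.08e-05) and by 0.63 in WT (SE 0.11, edgeR adjusted p = 0.000123). Scaling by total counts, which moved the median of all genes to -0.36 in ARNoC and -0.44 in WT, kept the rise in ARNoC but gave Cry1 in WT a log2 change of 0.21 and an adjusted p of 0.0953.

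Cry2 (ENSMUSG00000068742, chr2:92403646-92434043) had 1034, 1061, 881, 927 and 972 normalized counts in ARNoC with testosterone, against 1451, 1272, 1092, 1238 and 1145 in ARNoC with vehicle. WT libraries had 925, 849.8, 904, 859.8 and 891 with testosterone, against 1257, 975, 1101, 1064 and 866 with vehicle. The groups were apart in ARNoC and overlapped in WT, where 1 vehicle library lay among the testosterone libraries. Cry2 fell by 0.34 in ARNoC (SE 0.09, edgeR adjusted p = 0.00407) and fell by 0.24 in WT (SE 0.09, edgeR adjusted p = 0.0336). The WT call was lost when WT vehicle library 1, 3 or 4 was left out, with adjusted p of 0.116, 0.0724 and 0.0582.

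Nr1d1 and Nr1d2, the REV-ERB receptor genes that close the loop on Arntl, fell in both genotypes. Nr1d1 (ENSMUSG00000020889, chr11:98767932-98775333) had 448, 302, 293, 353 and 496 normalized counts in ARNoC with testosterone, against 2089.9, 1210.2, 1383, 1297 and 993 in ARNoC with vehicle. In WT it had 420.4, 322, 449.8, 344 and 424 with testosterone, against 2040.2, 895, 1403, 1230.3 and 1313 with vehicle. The lowest vehicle library was well above the highest testosterone library in both genotypes, and vehicle library 1 was the highest of its group in each. Nr1d1 fell by 1.88 in ARNoC (SE 0.21, edgeR adjusted p = 8.03e-07) and by 1.80 in WT (SE 0.21, edgeR adjusted p = 1.3e-06). Nr1d2 (ENSMUSG00000021775, chr14:18204054-18239127) had 648, 445, 449, 645 and 626 in ARNoC with testosterone, against 1594, 1759.9, 1006, 1524 and 1247 in ARNoC with vehicle. The WT values were 594, 582, 745, 531 and 617 with testosterone, against 1769, 1159, 1506, 1296 and 1144 with vehicle. The groups did not overlap, and Nr1d2 fell by 1.33 in ARNoC (SE 0.16, edgeR adjusted p = 1.36e-06) and by 1.16 in WT (SE 0.16, edgeR adjusted p = 7.48e-06).

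Dbp, the output factor, changed most among the members. Dbp (ENSMUSG00000059824, chr7:45705088-45710203) had 203, 123, 96.0, 170.4 and 148 normalized counts in ARNoC with testosterone, against 1651, 1163, 671, 989 and 547 in ARNoC with vehicle. Its WT values were 163, 124, 202, 119.8 and 129 with testosterone, against 1696, 614, 898, 624 and 574 with vehicle. The highest testosterone library was far below the lowest vehicle library in each genotype, while vehicle libraries of 1 group themselves differed widely. Dbp was 6.71 times lower in ARNoC (log2 -2.75, SE 0.33, edgeR adjusted p = 1.77e-06) and 5.98 times lower in WT (log2 -2.58, SE 0.33, edgeR adjusted p = 4.02e-06). Leaving out each library in turn gave log2 changes of -2.92 to -2.49 in ARNoC and -2.75 to -2.21 in WT.

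**Figure D2:**
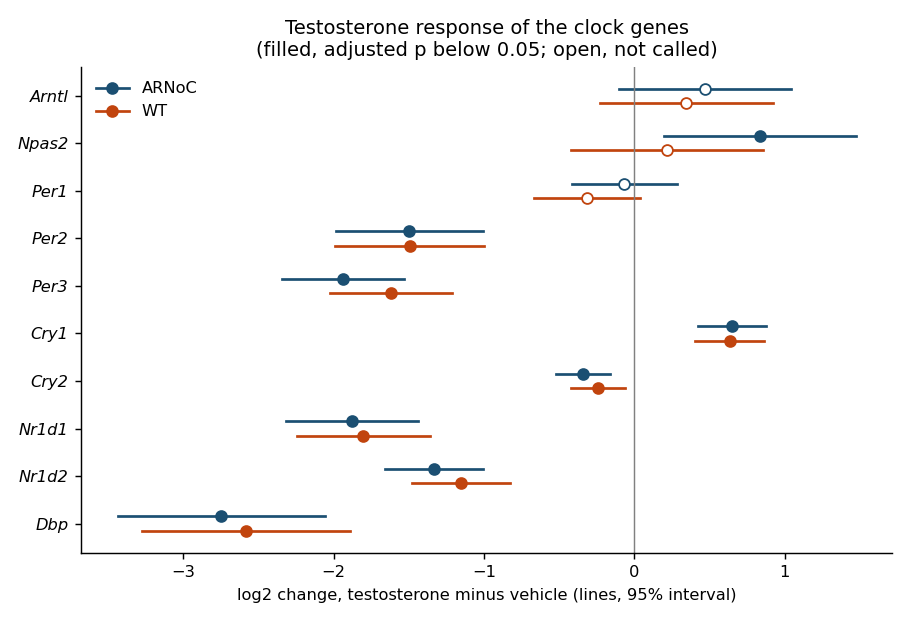
Log2 change with testosterone (testosterone minus vehicle, horizontal axis) of each clock gene in ARNoC and WT prostates, with 95% intervals from the edgeR fit. Filled points passed an adjusted p of 0.05. Dbp lies lowest at -2.75 in ARNoC and -2.58 in WT, Cry1 lies above 0 in both, and the intervals of the genotypes overlap for every gene.

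Some members share exon bases with a gene on the opposite strand, and the strand setting of the counting is not given in the sources used here. Sphk2 shares 18.01% of the exon bases of Dbp, Thra 8.55% of those of Nr1d1, D930015M05Rik 4.67% of those of Cry2 and Gm45355 0.44% of those of Arntl, so some reads there could belong to either. D930015M05Rik itself had a summed raw count of 1 in ARNoC with testosterone and of 0 in each of the other groups. Sphk2 averaged 999.8 ± 164 normalized counts in ARNoC with testosterone and 844 ± 132 in ARNoC with vehicle, and 951 ± 72.1 in WT with testosterone and 799 ± 37.6 in WT with vehicle (SD, n = 5 each), the direction opposite to Dbp. Thra averaged 702 ± 63.6 in ARNoC with testosterone and 989 ± 142 in ARNoC with vehicle, and 646 ± 57.5 in WT with testosterone and 974 ± 79.2 in WT with vehicle (SD, n = 5 each), the same direction as Nr1d1.

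Per length, the order of the members differed between treatments. On the scale of normalized counts per kilobase of exon, Nr1d1 led in vehicle prostates with 453 ± 135 in ARNoC and 447 ± 136 in WT (SD, n = 5 each), followed by Dbp with 336 ± 146 and 294 ± 158 and by Nr1d2 with 264 ± 55.3 and 254 ± 48.8. With testosterone, Cry2 led with 154 ± 11.7 in ARNoC and 140.2 ± 4.95 in WT, and Dbp was sixth with 49.5 ± 13.8 and 49.3 ± 11.6. Arntl was lowest in all groups, at 23.0 ± 2.49 in ARNoC with testosterone, 16.7 ± 7.57 in ARNoC with vehicle, 23.9 ± 3.61 in WT with testosterone and 19.0 ± 7.51 in WT with vehicle. Most neighbours in these orders overlapped between libraries. Those that did not were Per1 above Dbp in ARNoC with testosterone, Cry1 above Npas2 in both vehicle groups, Nr1d2 above Per1 in WT with testosterone and Nr1d2 above Cry2 in WT with vehicle.

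Among 25 further genes of the clock pathway, all of which were tested, 9 fell and 4 rose with testosterone in ARNoC and 5 fell and 7 rose in WT. Over all tested genes 16.8% fell and 19.4% rose in ARNoC and 18.8% fell and 20.4% rose in WT, near the pathway share for the genes that rose in ARNoC and for those that fell in WT. The median log2 change of the 25 was -0.07 in ARNoC and -0.09 in WT, beside -0.01 and -0.02 over all tested genes. The partners of Dbp on D-box DNA and their repressor differed in direction. Tef had 1938 to 2343 normalized counts (median 2054) in ARNoC with testosterone, against 3259 to 5807 (median 4472) in ARNoC with vehicle, and 1768 to 2103 (median 1831) in WT with testosterone against 2787 to 5015 (median 3093) in WT with vehicle. Tef fell by 1.07 on the log2 scale in ARNoC (edgeR adjusted p = 9.88e-06) and by 0.93 in WT (adjusted p = 4.82e-05). Hlf was 2.01 times lower in ARNoC (edgeR adjusted p = 0.0185), a call that ended without ARNoC vehicle library 4, and its log2 change of -0.79 in WT missed the threshold (adjusted p = 0.0584). In WT Hlf passed by DESeq2 (adjusted p = 0.0384), with total-count scaling (edgeR adjusted p = 0.00422) and without WT vehicle library 2, 3 or 4 or testosterone library 4, and its log2 change was -0.33 without WT vehicle library 1.

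Nfil3, which encodes the repressor of D-box genes, went the other way. It had 2303, 2861, 2772, 1945 and 2603 normalized counts in ARNoC with testosterone, against 258, 343, 524, 234 and 425 in ARNoC with vehicle. WT libraries had 1936, 2013, 2071, 1558 and 2110.1 with testosterone, against 410.1, 614, 578, 511 and 513 with vehicle. The groups were far apart in both genotypes. Nfil3 rose by 2.81 on the log2 scale in ARNoC (SE 0.18, edgeR adjusted p = 5.47e-10) and by 1.89, or 3.71 times, in WT (SE 0.18, edgeR adjusted p = 8.04e-08). The difference between these responses was 0.92 on the log2 scale (ARNoC minus WT, edgeR unadjusted p = 0.0014) and did not pass adjustment over all genes (adjusted p = 0.352).

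**Figure D3:**
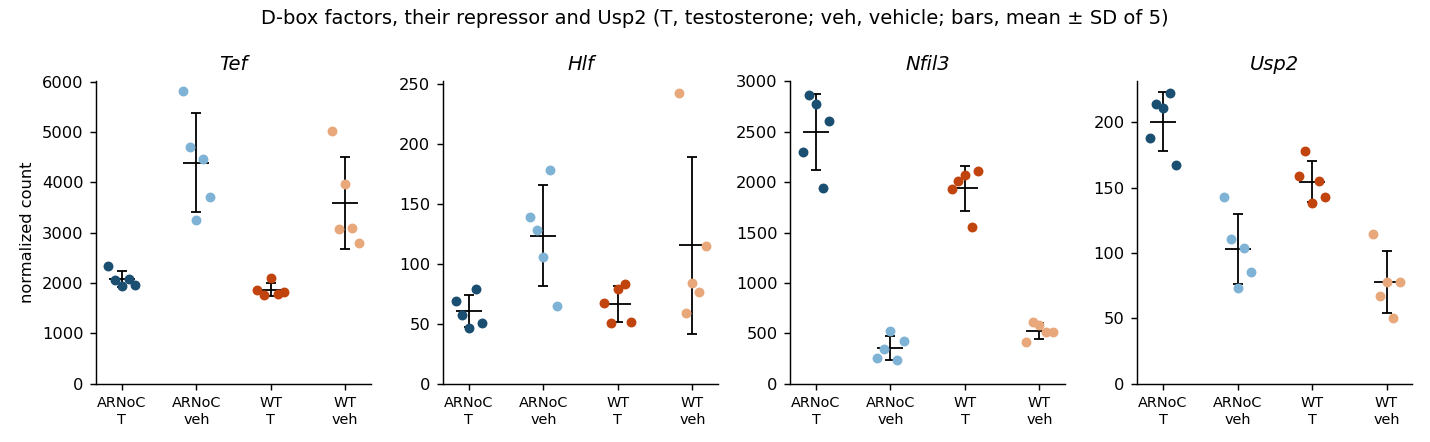
Normalized counts (vertical axes, linear and starting at 0) of Tef, Hlf, Nfil3 and Usp2 in each library, with means and SDs of 5. Nfil3 reaches 1945 or more in ARNoC with testosterone against 524 or less in ARNoC with vehicle, and Tef runs the other way.

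None of the remaining genes of the loop named here was called in both genotypes. Clock, the partner of Arntl, was not called: its log2 change was 0.23 in ARNoC (edgeR adjusted p = 0.193) and -0.09 in WT (adjusted p = 0.616). Bhlhe41, a repressor at E-boxes, fell by 0.68 in ARNoC (edgeR adjusted p = 0.0185) and had an uncalled change of -0.33 in WT (adjusted p = 0.244). Its relative Bhlhe40 had an uncalled change of -0.67 in ARNoC (edgeR adjusted p = 0.102) and fell by 0.91 in WT (adjusted p = 0.028). The difference between genotypes in these responses had an edgeR unadjusted p of 0.264 for Bhlhe41 and 0.596 for Bhlhe40. Bhlhe40 passed in ARNoC with the stromal covariate (edgeR adjusted p = 0.0458), with total-count scaling (0.012), and without ARNoC vehicle library 3 or 5 or testosterone library 3, and Bhlhe41 passed in WT with total-count scaling (edgeR adjusted p = 0.00595). Leaving out WT vehicle library 1 or 2 or WT testosterone library 1 ended the WT call of Bhlhe40, and leaving out ARNoC vehicle library 1 or 2 ended that of Bhlhe41. Rora and Rorb encode activators of Arntl that use the same element as REV-ERB receptors. Rora fell by 0.33 in ARNoC (edgeR adjusted p = 0.0403) and had an uncalled change of -0.17 in WT (adjusted p = 0.301). Rorb rose by 0.67 in WT (edgeR adjusted p = 0.0213) and had an uncalled change of 0.28 in ARNoC (adjusted p = 0.33). The Rora call ended without any of 6 of the ARNoC libraries, and the Rorb call without any of 3 of the WT libraries. Ciart, a repressor of the activator pair, had log2 changes of -0.72 in ARNoC and -0.95 in WT that were not called (edgeR adjusted p = 0.168 and 0.0753).

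Genes that act on PER and CRY proteins changed in both directions. Prkaa1 and Prkaa2, the catalytic subunits of the kinase AMPK, which marks CRY1 for degradation, rose in both genotypes: Prkaa2 by 0.89 in ARNoC and 0.72 in WT (edgeR adjusted p = 7.74e-08 and 1.05e-06), and Prkaa1 by 0.29 in ARNoC and 0.40 in WT (adjusted p = 0.00161 and 6.73e-05). With total-count scaling the change of Prkaa1 was -0.05 in ARNoC and -0.02 in WT. Csnk1e, a kinase of PER proteins, fell by 0.45 in ARNoC and by 0.28 in WT (edgeR adjusted p = 0.000803 and 0.0228), and the WT call ended without WT vehicle library 4 or 5. Btrc, a ligase subunit for PER, fell by 0.21 in ARNoC (edgeR adjusted p = 0.0227), where leaving out vehicle library 5 ended the call. In WT its log2 change of 0.10 was not called (edgeR adjusted p = 0.27), and the difference between these responses did not pass (adjusted p = 0.394). Nono, a partner of PER complexes, fell by 0.32 in ARNoC and by 0.24 in WT (edgeR adjusted p = 0.00032 and 0.00395).

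Among output genes of the clock, the deubiquitinase gene Usp2 rose and the cell cycle kinase gene Wee1 fell. Usp2 had 167 to 222 normalized counts in ARNoC with testosterone against 73.0 to 143 in ARNoC with vehicle, and 138 to 178 in WT with testosterone against 50.03 to 115 in WT with vehicle. Usp2 rose by 0.97 in ARNoC and by 1.01 in WT (edgeR adjusted p = 0.000327 and 0.000261), the direction opposite to Dbp. Wee1 fell by 1.04 in ARNoC and by 0.58 in WT (edgeR adjusted p = 1.18e-05 and 0.00363). Noct, listed under its older symbol Ccrn4l, rose by 0.43 in WT (edgeR adjusted p = 0.0341), a call that ended without any of 8 of the 10 WT libraries. In ARNoC its log2 change of 0.28 was not called (edgeR adjusted p = 0.176).

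Genotype left the 10 genes without a called difference at either treatment. With vehicle, 0 of 10 members differed between ARNoC and WT, beside 0.321% of all tested genes, and 1 member, Cry2, had an unadjusted p under 0.05. Cry2 averaged 1239.6 ± 139 normalized counts in ARNoC with vehicle and 1053 ± 146 in WT with vehicle (SD, n = 5 each), a log2 difference of 0.24 with an edgeR unadjusted p of 0.011 and an adjusted p of 0.401. The other log2 differences with vehicle ran from -0.43 for Npas2 to 0.21 for Per3, through Arntl at -0.18, Nr1d1 at 0.03, Per1 at 0.03, Nr1d2 at 0.06, Cry1 at 0.11, Per2 at 0.14 and Dbp at 0.20. With testosterone, 0 of 10 differed by edgeR, beside 1.69% of tested genes, and no member had an unadjusted p under 0.05. Those log2 differences ran from -0.12 for Nr1d2 to 0.28 for Per1, through Per3 at -0.11, Arntl at -0.05, Nr1d1 at -0.05, Dbp at 0.03, Cry1 at 0.13, Per2 at 0.14, Cry2 at 0.14 and Npas2 at 0.19. No member was called in either comparison by DESeq2, limma-voom or limma-trend.

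The response to testosterone was then compared between genotypes, as the ARNoC response minus the WT response. By edgeR 0 genes in all passed (0%), 1306 had an unadjusted p under 0.05, and DESeq2 called 29, none of them a member. The difference for Dbp was -0.17, with a 95% interval of -1.10 to 0.77. For Per2 it was -0.0017 with an interval of -0.71 to 0.70, for Nr1d1 -0.07 with an interval of -0.68 to 0.53, and for Cry1 0.01 with an interval of -0.31 to 0.34. For Npas2, called in ARNoC and not in WT, the difference was 0.62 with an interval of -0.28 to 1.52 and an unadjusted p of 0.168. Leaving out 1 library at a time gave 0.43 to 1.03, the highest without ARNoC vehicle library 3 (edgeR adjusted p = 0.449), where 1 member had an unadjusted p under 0.05. Per1 gave 0.25, Arntl 0.12, Cry2 -0.10, Nr1d2 -0.18 and Per3 -0.32, with unadjusted p of 0.251 to 0.754. Btrc was the 1 gene of the pathway list called between genotypes: it was 1.27 times lower in ARNoC than in WT with testosterone (log2 -0.35, edgeR adjusted p = 0.0129).

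Libraries of 1 group differed among themselves in the clock genes, most of all for Arntl, Npas2 and Dbp among the vehicle libraries. The coefficient of variation of Arntl was 10.8% in ARNoC with testosterone and 45.3% in ARNoC with vehicle, and 15.1% in WT with testosterone and 39.6% in WT with vehicle. For Npas2 it was 17.3% and 59.5% in ARNoC and 14% and 32.1% in WT in the same order, and for Dbp 27.9% and 43.5% in ARNoC and 23.6% and 53.7% in WT. Vehicle libraries 1 and 2 of ARNoC and 1 of WT stood together: Arntl was 0.95, 0.52 and 0.82 log2 units below the mean of its group there, and Dbp was 0.83, 0.31 and 1.07 above. Vehicle libraries 3 and 5 of ARNoC and 5 of WT stood the other way, with Arntl 0.49, 0.79 and 0.78 above its group mean and Dbp 0.47, 0.75 and 0.49 below.

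Correlations between members were taken over all 20 libraries on log2 CPM (counts scaled to library size) with the group means removed, so that the treatment and genotype effects do not enter. Of 45 pairs, 32 passed a permutation test within groups after Benjamini-Hochberg adjustment over the 45, 17 positive and 15 negative. Pairs of other genes were not tested in this way, so the share of pairs that pass in general is not known here. Arntl and Npas2 varied together (Pearson r = 0.81, permutation p = 0.00404, adjusted p = 0.0101; Spearman rho = 0.92, p = 1e-05, the smallest that 100000 permutations can give). Arntl and Dbp varied inversely (r = -0.80, permutation p = 0.00049, adjusted p = 0.00276; rho = -0.70, p = 0.00428). Per3 and Dbp varied together (r = 0.87, permutation p = 2e-05, adjusted p = 0.0009; rho = 0.89, p = 1e-05), as did Nr1d2 and Dbp (r = 0.85, permutation p = 0.00014, adjusted p = 0.00255; rho = 0.88, p = 2e-05).

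Per1, not called with testosterone, varied with other members from library to library. Its r was -0.82 with Arntl (permutation p = 0.001, adjusted p = 0.0045; rho = -0.85, p = 0.00018) and 0.74 with Dbp (permutation p = 0.00282, adjusted p = 0.00793; rho = 0.71, p = 0.00343). For Cry1 the r was -0.80 with Nr1d1 (permutation p = 0.00017, adjusted p = 0.00255; rho = -0.81, p = 0.00034) and 0.20 with Arntl (adjusted p = 0.411; rho = 0.19). Without the 2 libraries farthest from the median of the gene named first, r was 0.71 for Arntl and Npas2, -0.60 for Arntl and Dbp, 0.86 for Per3 and Dbp, 0.82 for Nr1d2 and Dbp, -0.83 for Arntl and Per1, 0.63 for Per1 and Dbp and -0.74 for Cry1 and Nr1d1.

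**Figure D4:**
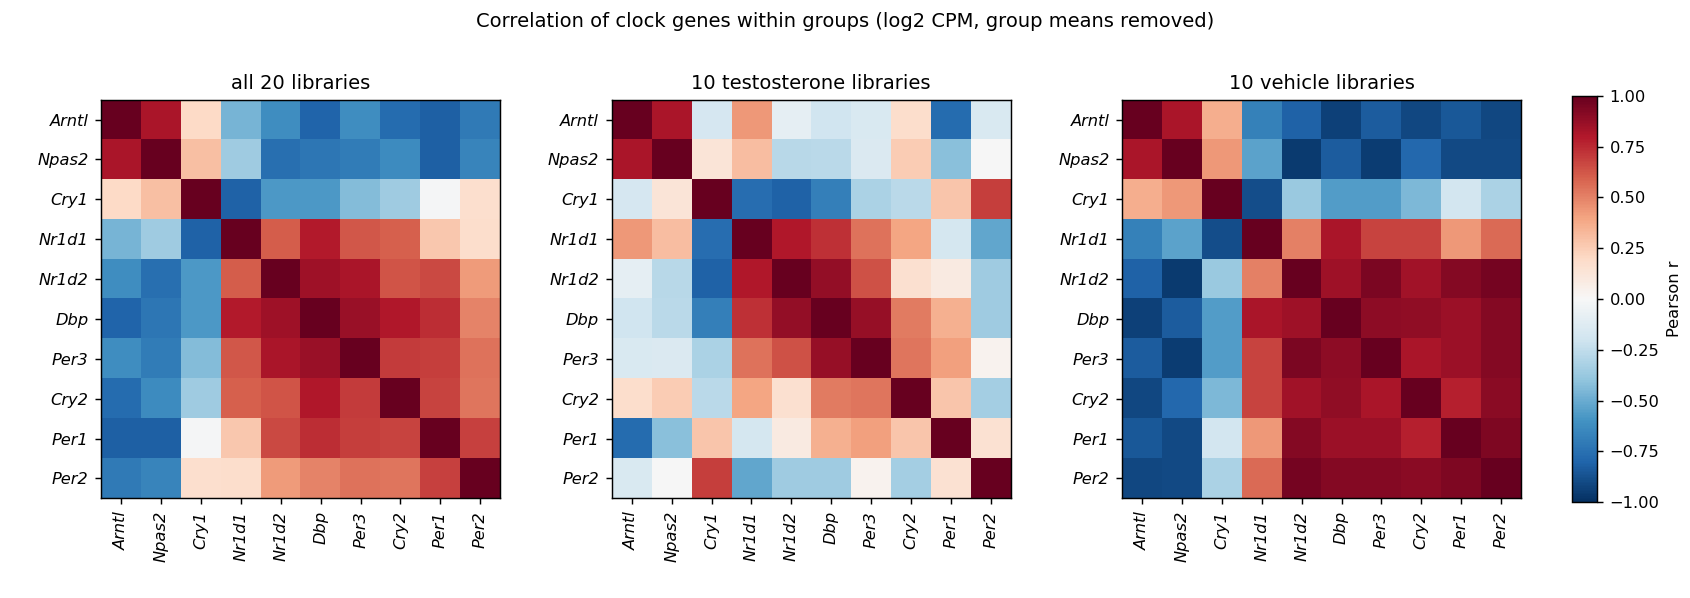
Pearson r between clock genes (both axes) over log2 CPM with group means removed, for all 20 libraries, the 10 testosterone libraries and the 10 vehicle libraries, from blue at -1 to red at 1. Arntl and Npas2 form a block opposite to Dbp, Per and Nr1d2 in the vehicle libraries, and Cry1 is opposite to Nr1d1 in each panel.

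Taken by treatment, the counts of such pairs were unlike. In the 10 testosterone libraries alone 0 of 45 pairs passed adjustment, with 8 at an unadjusted permutation p under 0.05, whereas 30 of 45 passed in the 10 vehicle libraries alone. Arntl and Dbp had r = -0.20 in the testosterone libraries and r = -0.93 in the vehicle libraries, and Per2 and Dbp had r = -0.36 and 0.92 in the same order. Other pairs had similar r at both treatments, among them Arntl and Npas2 (0.82 in testosterone libraries, 0.81 in vehicle libraries), Per3 and Dbp (0.87 and 0.89) and Nr1d2 and Dbp (0.88 and 0.84). The difference between treatments in r was not tested. Leaving out WT vehicle library 1, the one highest in Dbp, left 16 of 45 pairs past the threshold, with r of -0.73 for Arntl and Dbp and 0.87 for Per3 and Dbp.

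**Figure D5:**
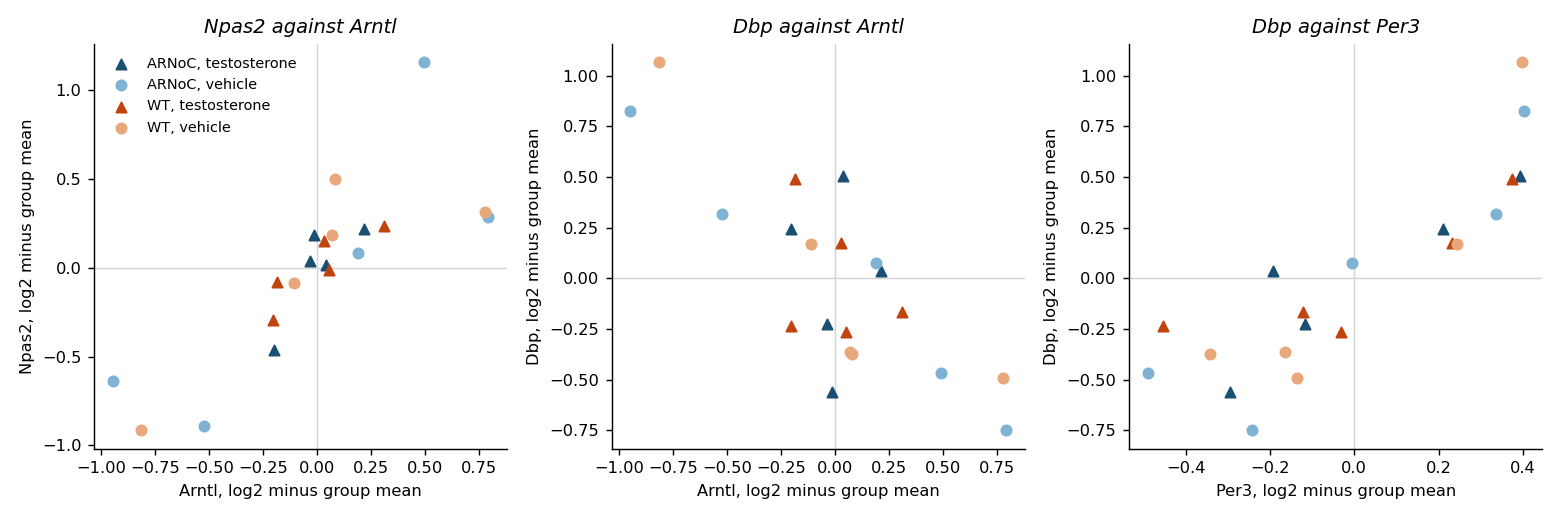
Log2 CPM minus the group mean, 1 point per library, for Npas2 against Arntl, Dbp against Arntl and Dbp against Per3. Triangles are testosterone libraries and circles vehicle libraries. The vehicle libraries spread farther in Arntl, Npas2 and Dbp, with the WT library highest in Dbp at 1.07 above its group mean. In Per3 the SDs were 0.29 with testosterone and 0.38 with vehicle in ARNoC, and 0.32 and 0.31 in WT.

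Among the 11631 tested genes averaging 50 or more normalized counts, those whose group-centred log2 values followed Arntl most closely over the 20 libraries were Npas2 (r = 0.81), Leo1 (0.78), Zfand5 (0.69), Txndc12 (0.69) and Ripk2 (0.69). Counted from the most alike, Dbp and Per1 ranked 11629 and 11630 of 11631 against Arntl, with Cry2 at 11627 and Per2 at 11621. The genes that followed Dbp most closely were Tef (r = 0.91), Per3 (0.87), Nr1d2 (0.85), Cry2 (0.80) and Sh3rf1 (0.80). Nr1d1 ranked 6 and Per1 ranked 8 against Dbp, while Per2 ranked 216. These ranks describe 20 libraries that share the scaling of their counts, and carry no test.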

How the data were processed

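RNA of ventral prostate was sequenced in 20 Illumina TruSeq libraries, per the labels. The deposited counts are raw counts per gene symbol, for which the submitters' processing notes name HISAT2, SAMtools 1.5, HTSeq and the mm10 build without settings. A further table of deposited signal values gives normalized counts: per the authors' table, each library is scaled by a DESeq2 size factor, and multiplying back returned the counts within 3.0e-09. All sample columns were matched to labels.

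The 15261 genes reaching 10 normalized counts in 5 or more libraries entered edgeR 4.0.16 (R 4.3.3), scaled by trimmed means of M-values. Each group had its own mean. The quasi-likelihood F-test was adjusted by Benjamini-Hochberg at 0.05 over all tested genes. SEs are the log2 change divided by the square root of F. Correlations used log2 CPM with a prior count of 1. The fit and the correlation test were tested on simulated data. Alternatives used DESeq2 1.42.0, limma 3.58.1, other scalings, filters and covariates, and left libraries out. Library numbers follow the order of the samples and pair nothing. Exon lengths, coordinates and overlaps came from GENCODE M21, promoters from RefSeq. Depth was 8861646 to 21600352 counts, which limits genes of low count such as Ciart.

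Every comparison names all 10 members. The 25 further pathway genes are given as counts, with values for those called or needed. Values of 2 called pathway genes are not reported here. The members and lists were chosen with earlier results of these data known. The list of output genes holds Noct by its older symbol.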

Additional observations from a re-analysis of the deposited data

Results flagged for a closer look

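In 40 combinations of a clock gene and a group of 5 libraries, 2 held a library whose gap to its nearest neighbour took more than 0.71 of the group's range, a gap that chance gives in about 1 group in 20. The number found was thus about what that rate gives. Dbp stood at 1696 normalized counts in WT vehicle library 1, above the 4 other libraries of that group. Cry1 stood at 334.8 normalized counts in WT vehicle library 2, also above the 4 others of its group. For no member did the difference in testosterone response between the genotypes pass its test.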

How the results depend on the processing

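All 20 libraries were used unless stated, and no label pairs them. No paired analysis was possible because the labels carry no replicate numbers. The falls of Dbp, Nr1d1, Nr1d2, Per2 and Per3 passed under every alternative run in both genotypes, and no member was called between genotypes or in the difference of responses under any of them. Total-count scaling, under which all genes fall at the median, called 8726 genes in ARNoC (1178 higher, 7548 lower, in place of 2962 and 2565) and 10219 in WT (1099 higher, 9120 lower, in place of 3114 and 2871). It called 1 member higher in ARNoC and 0 in WT, and added Per1 as lower (-0.42 in ARNoC, -0.74 in WT). It turned log2 changes in ARNoC to -0.11 for Clock, -0.059 for Rorb, -0.053 for Prkaa1 and -0.064 for Ccrn4l, and in WT to -0.076 for Arntl, -0.20 for Npas2, -0.32 for Btrc and -0.024 for Prkaa1. The rise of Npas2 in ARNoC ended, leaving 1 member higher, with no filter, with the compared groups alone, without WT vehicle 2 with ARNoC vehicle 5, and without WT vehicle 1 with ARNoC vehicle 1 and 2, the last 3 libraries being chosen after seeing the data. Without those 3 Per1 had 0.17 and Ciart 0.11 in ARNoC, and the log2 change of Cry2 in WT was -0.17 (edgeR adjusted p = 0.0835). Clock in WT had 0.092 without WT vehicle 2 with ARNoC vehicle 5. Leaving out 1 library at a time gave 1 to 2 members higher in ARNoC, Per1 in ARNoC -0.16 to 0.072 and Clock in WT -0.18 to 0.092.

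ARNoC against WT with vehicle gave 49 genes, against 93 with the stromal covariate, 19 with the compared groups alone, 137 by DESeq2, 20 without the 3 vehicle libraries and 29 to 71 without 1 library. With testosterone it gave 258 genes, against 437 with total-count scaling, 451 with the stromal covariate, 498 by DESeq2 and 154 to 258 without 1 library. The difference of responses gave 0 genes, against 2 with total-count scaling, 2 with no filter, 1 by limma-trend with a pseudocount of 1, 29 by DESeq2 and 0 to 2 without 1 library. Uncalled differences near 0 changed sign. With vehicle, without the 3 libraries, these were Arntl 0.049, Per1 -0.05, Per2 -0.005 and Nr1d2 -0.018. Without 1 library Arntl ran from -0.40 to 0.061, Dbp -0.059 to 0.57, Nr1d1 -0.17 to 0.21, Nr1d2 -0.027 to 0.16 and Per1 -0.10 to 0.19. With testosterone, total-count scaling gave Arntl 0.021 and Nr1d1 0.031, limma-trend gave Dbp -0.0108 and -0.0099 (pseudocounts of 1 and 5) and the stromal covariate gave Dbp -0.14. Without 1 library Arntl ran from -0.12 to 0.026, Dbp -0.11 to 0.16, Nr1d1 -0.17 to 0.026 and Per2 -0.041 to 0.25. In the difference of responses, Per2 had 0.065 with total-count scaling, 0.0026 with a filter of 50 and 0.14 without the 3 libraries, Arntl had -0.10 without them, and Cry1 had -0.0088 by limma-voom, -0.0033 and -0.0025 by limma-trend and -0.062 without WT vehicle 2 with ARNoC vehicle 5. Without 1 library Arntl ran from -0.12 to 0.35, Cry1 -0.078 to 0.071, Dbp -0.54 to 0.087, Nr1d1 -0.26 to 0.12 and Per2 -0.18 to 0.12. The stromal covariate ended the WT calls of Bhlhe40 and Ccrn4l. Of the 45 pairs 32 passed, 0 in testosterone libraries alone and 16 without WT vehicle 1, alternatives chosen after seeing the data. The cause of these changes was not tested. Low counts limit genes such as Ciart and Hlf.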
